A study of Solanum lycopersicum with 18 samples.

Results

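In seeds of 3 tomato genotypes, 56 of the 33976 genes in the deposited tables had no read in any of the 6 libraries of exactly 1 genotype and were expressed in the other genotypes. A gene was taken when its count, rounded to a whole number, was 0 in all 6 libraries of 1 genotype and its mean was at least 1 TPM (transcripts scaled to a common library total and corrected for length) over the 6 libraries of each of the other genotypes. Of the 56 genes, 36 had no read in Micro-Tom, 13 had none in Criollo and 7 had none in Stupicke. The zero reads and the minimum level chose these genes, so both are given as a description and were not tested.

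The RNA came from seeds of the large-fruited cultivar Stupicke (St), the small-fruited cultivar Criollo (Cr) and the dwarf reference genotype Micro-Tom (uTom). Seeds of every group were osmoprimed for 48 h in polyethylene glycol, either with 2 mM methyl jasmonate (MeJA-primed) or without it (mock-primed), and were dried again for 48 h. There were 6 groups, with 3 replicates of 30 seeds each: MeJA- and mock-primed Stupicke, MeJA- and mock-primed Criollo, and MeJA- and mock-primed Micro-Tom. All groups shared the osmotic treatment, so unprimed seeds are not part of any comparison here. A replicate is a pool of whole seeds, so fewer cells of a type and less RNA per cell cannot be told apart.

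Cultivars of a crop can carry different sets of genes, since genes or whole stretches of chromosome may be present in some lines and deleted or rearranged in others. Methyl jasmonate is a volatile form of the plant hormone jasmonate, which switches on defence genes. Salmon assigns reads to the transcripts of 1 reference annotation, so a gene without reads may be lacking from a cultivar, be silent in its seeds, or differ so much in sequence that its reads are not assigned. Reads from transcripts that resemble each other are divided between them. RNA counts on 1 reference do not separate these cases, and none of them was tested.

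An identifier such as Solyc04g081660.3.1 gives the chromosome in the digits before the letter g, then the order of the gene along it, then the version of the gene model. The files pair the identifiers with no gene names. Of the 56 genes, 1 is annotated in the study's tables, Solyc03g093340.4.1, an uncharacterized conserved protein, and the others are given by identifier alone, with no role.

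The estimated counts summed to between 19428866 and 20560389 per library in Stupicke, 19983096 and 20484314 in Criollo, and 18807931 and 19648744 in Micro-Tom. With 3 counts as the limit that a count of 0 allows, a gene at 0 in all 6 libraries is put below a bound. The bound is 0.0248 CPM (counts scaled to the library total) in Stupicke, 0.0247 in Criollo and 0.0261 in Micro-Tom. A gene below it can still show reads. These limits cover counting error only. Genes annotated as seed proteins (30 storage, oleosin and late embryogenesis abundant genes) summed to 89880 to 120600 TPM per library in Stupicke, 33040 to 79770 in Criollo and 26420 to 64950 in Micro-Tom, while 2 genes of green tissue summed to at most 8.36 TPM in any library. The genes summed are those annotated in the study's tables, which include lists of genes called different in these same libraries. The sums are therefore a description. Whether these differences in seed transcripts bear on the results was not tested. Replicate 3 of mock-primed Micro-Tom stood apart: over 27640 genes, its log2(TPM + 1) values had a mean correlation of 0.955 with the other libraries of its group, against 0.971 to 0.991 for the other 17 libraries. Without it the number of genes chosen was 57 in place of 56.

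Genes without reads were a small share of expressed genes in each class. The 36 genes without reads in Micro-Tom were 0.207% of the 17420 genes with a mean of at least 1 TPM in both Stupicke and Criollo. The 13 without reads in Criollo were 0.0753% of the 17256 such genes in Stupicke and Micro-Tom, and the 7 without reads in Stupicke were 0.0399% of the 17548 such genes in Criollo and Micro-Tom. With no minimum level the order was not the same: 563 genes had no read in Micro-Tom only, 621 in Criollo only and 641 in Stupicke only. The converse also occurred: 37 genes had at least 1 TPM in Micro-Tom and no read in the cultivars, and the same pattern held for 23 genes of Criollo and 13 of Stupicke.

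**Figure D1:**
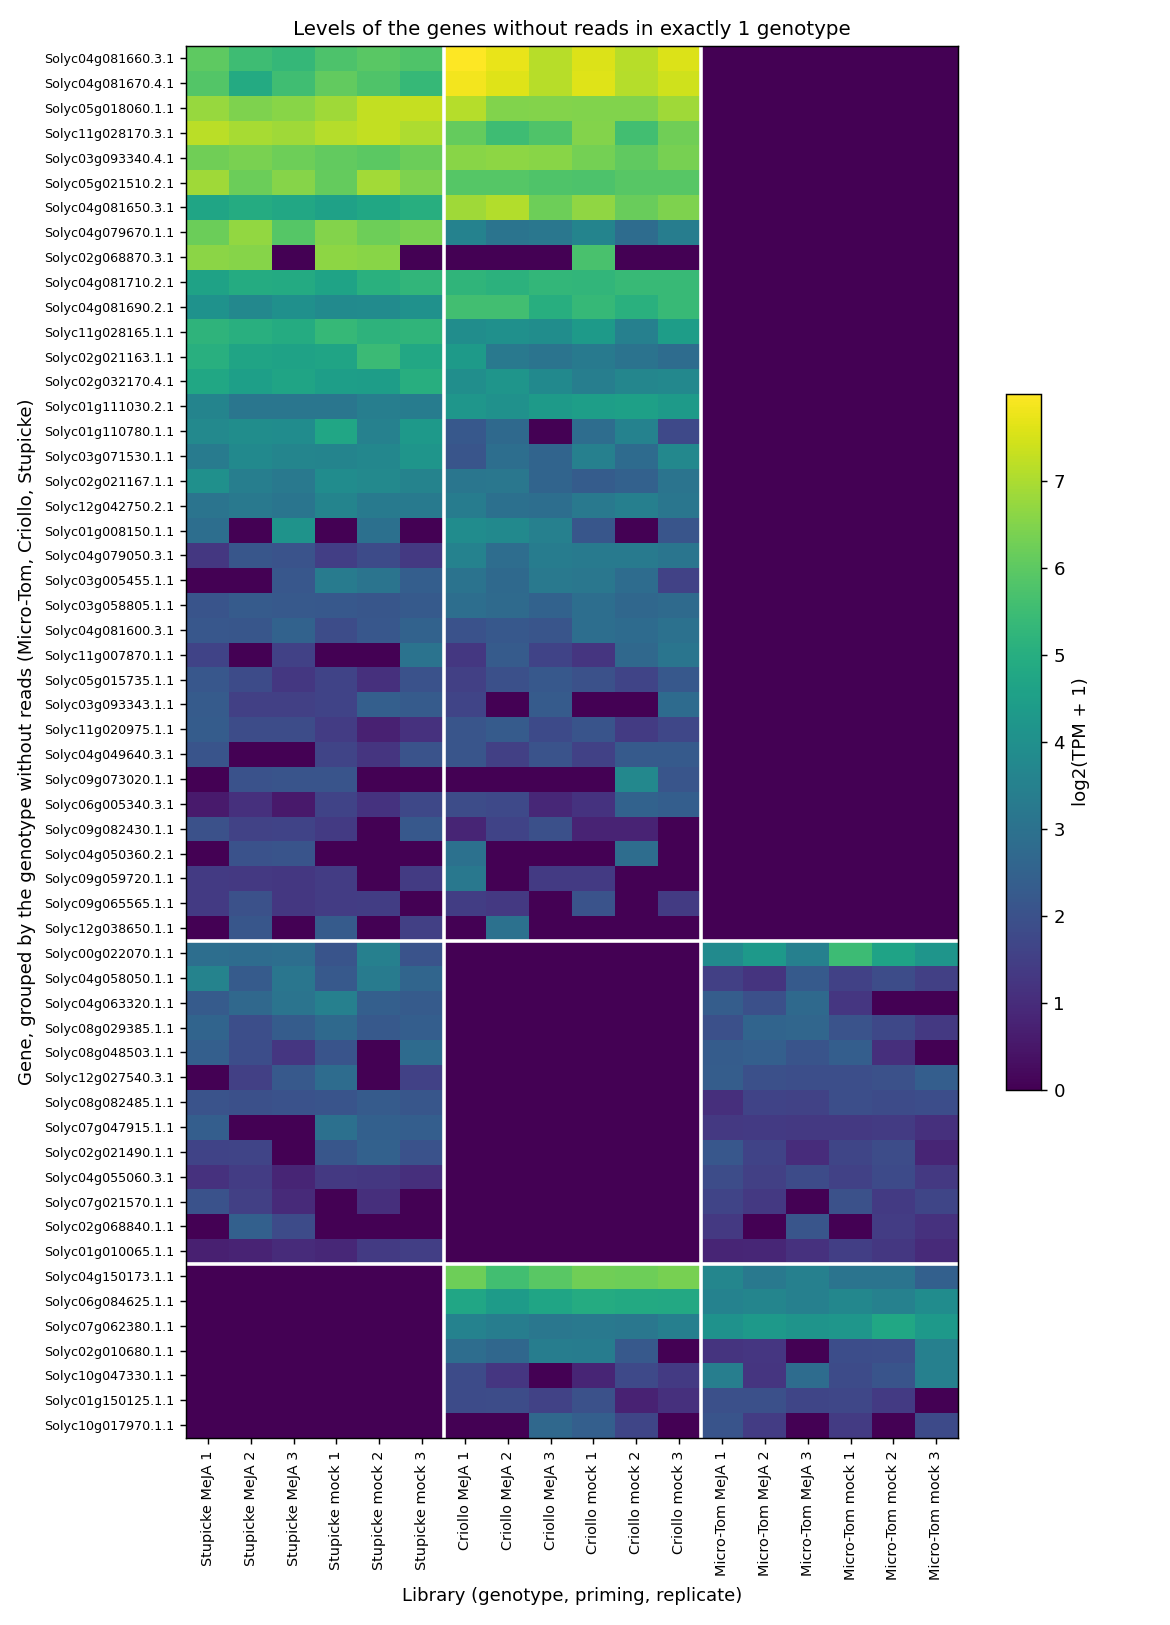
Level of each of the 56 genes (rows) in each of the 18 libraries (columns), as log2(TPM + 1) on the colour scale. Rows are grouped by the genotype without reads (36 for Micro-Tom at the top, then 13 for Criollo and 7 for Stupicke) and run from high to low mean TPM, and dark blocks are libraries at 0 TPM.

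The most abundant genes of all belonged to the Micro-Tom class. Solyc04g081660.3.1 had no read in Micro-Tom and reached 63.6, 44.8 and 39.1 TPM in MeJA-primed and 53.85, 61.2 and 54.9 TPM in mock-primed Stupicke seeds. In Criollo the same gene had 255, 209 and 139 TPM in MeJA-primed and 192, 140 and 189 TPM in mock-primed seeds. Every Criollo library was above every Stupicke library. At the depth of the Micro-Tom libraries, 0 reads put it at least 396-fold lower there than in Stupicke and at least 1381-fold lower than in Criollo.

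Its neighbour Solyc04g081670.4.1 had 56.7, 28.65 and 46.1 TPM in MeJA-primed and 66.7, 55.0 and 40.2 TPM in mock-primed Stupicke seeds. In Criollo it had 231, 195 and 140 TPM in MeJA-primed and 193, 136 and 169 TPM in mock-primed seeds. The levels of this gene and Solyc04g081660.3.1 were thus alike within each cultivar, and for both the Criollo libraries lay above the Stupicke libraries. Next to them, Solyc04g081650.3.1 averaged 27.0 TPM in Stupicke (range 22.6 to 31.6) and 97.2 TPM in Criollo (range 70.6 to 134).

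Solyc03g093340.4.1, the uncharacterized conserved protein, rested on the most reads of all 56 genes, with 15958 counts over the 12 libraries of Stupicke and Criollo and none in Micro-Tom. Its counts were 1261, 1471 and 1249 in MeJA-primed and 1093, 1055 and 1276 in mock-primed Stupicke seeds. They were 1560, 1690 and 1618 in MeJA-primed and 1280, 1075 and 1330 in mock-primed Criollo seeds. This gene was therefore well covered in every library of both cultivars, and 0 reads put it at least 2339-fold lower in Micro-Tom than in Stupicke and at least 2694-fold lower than in Criollo.

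Of the other genes of this class, Solyc05g018060.1.1 averaged 119 TPM in Stupicke and 101 TPM in Criollo, and Solyc11g028170.3.1 averaged 133 and 63.4 TPM in the same order. Solyc05g021510.2.1 averaged 92.5 TPM in Stupicke and 57.3 TPM in Criollo, on 273 counts in all. Solyc04g079670.1.1 differed most between the cultivars that had reads, with 72.4, 102.5 and 57.8 TPM in MeJA-primed and 90.3, 74.6 and 82.7 TPM in mock-primed Stupicke, against 10.6, 7.39 and 7.965 TPM in MeJA-primed and 11.1, 6.04 and 9.39 TPM in mock-primed Criollo. The libraries of Stupicke and Criollo did not overlap for that gene.

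Over the whole Micro-Tom class the mean level ranged from 1.34 to 120 TPM, with a median of 8.66 TPM. Of the 36 genes, 11 had more than 1000 counts, and 12 were at least 100-fold lower in Micro-Tom than in either cultivar. In all, 23 were at least 10-fold lower than in either cultivar, 10 had bounds between 1- and 10-fold, and 3 could not be bounded.

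A TPM value alone hid how few reads some genes had, as genes singled out after their values were seen show. Solyc02g068870.3.1 averaged 63.6 TPM in Stupicke and 8.43 TPM in Criollo, but these values came from 9 counts in all, with 7 of the 12 libraries at 0. Its 2, 2 and 0 counts in MeJA-primed Stupicke stood for 96.5, 92.0 and 0 TPM. At its Criollo level, 0.945 counts would have been reached in Micro-Tom, below the limit of 3, so the lack of reads in Micro-Tom was not detectable as a difference from Criollo for this gene. The same held for Solyc09g073020.1.1, with 8 counts in all, and Solyc04g050360.2.1, with 6, set against Stupicke.

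In the Criollo class no gene was abundant. The highest mean was that of Solyc00g022070.1.1, which was at 0 in Criollo, at 6.435, 6.13 and 6.43 TPM in MeJA-primed and 3.26, 10.2 and 3.09 TPM in mock-primed Stupicke, and at 13.1, 18.75 and 10.2 TPM in MeJA-primed and 43.8, 24.2 and 16.9 TPM in mock-primed Micro-Tom. Its digits 00 mark a sequence not placed on a chromosome, and it rested on 62 counts. Solyc08g082485.1.1 had the most counts of this class, 617, and averaged 3.25 TPM in Stupicke (2.90 to 3.88) and 2.19 TPM in Micro-Tom (1.10 to 2.77). Its 0 reads put it at least 120-fold lower in Criollo than in Stupicke and at least 91.4-fold lower than in Micro-Tom.

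The other genes of the Criollo class with the highest means were Solyc04g058050.1.1 (6.78 TPM in Stupicke, 2.23 in Micro-Tom), Solyc04g063320.1.1 (5.86 and 2.34), Solyc08g029385.1.1 (4.23 and 3.33), Solyc08g048503.1.1 (2.95 and 2.83), Solyc12g027540.3.1 (2.27 and 3.31) and Solyc07g047915.1.1 (3.27 and 1.47). Of these 6 genes, Solyc08g029385.1.1 had 344 counts and the others had 15 to 70. The remaining 5 genes of the class, Solyc02g021490.1.1, Solyc04g055060.3.1, Solyc07g021570.1.1, Solyc02g068840.1.1 and Solyc01g010065.1.1, averaged 1.14 to 2.28 TPM over the 12 libraries with 8 to 315 counts.

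In the Stupicke class 3 genes stood above 1000 counts. Solyc04g150173.1.1 was at 0 in Stupicke, at 73.7, 47.0 and 61.3 TPM in MeJA-primed and 75.3, 74.6 and 80.2 TPM in mock-primed Criollo, and at 11.8, 8.47 and 10.2 TPM in MeJA-primed and 7.45, 7.43 and 4.44 TPM in mock-primed Micro-Tom. Solyc06g084625.1.1 averaged 25.8 TPM in Criollo and 11.4 TPM in Micro-Tom, and Solyc07g062380.1.1 averaged 9.11 and 19.1 TPM in the same order. The last was lower in Criollo than in Micro-Tom, where the others were higher. Differences between these genotypes were common, with 50.0% of all genes tested called in mock-primed seeds (edgeR, adjusted p under 0.05). The 0 reads of the 3 genes put them in Stupicke at least 373-, 442- and 155-fold lower than in Criollo.

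The other 4 genes of the Stupicke class had few reads. Solyc02g010680.1.1 averaged 5.70 TPM in Criollo and 3.07 TPM in Micro-Tom on 34 counts, Solyc10g047330.1.1 averaged 1.45 and 5.51 TPM on 83 counts, Solyc01g150125.1.1 averaged 1.99 and 1.95 TPM on 99 counts, and Solyc10g017970.1.1 averaged 2.02 and 1.51 TPM on 11 counts.

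**Figure D2:**
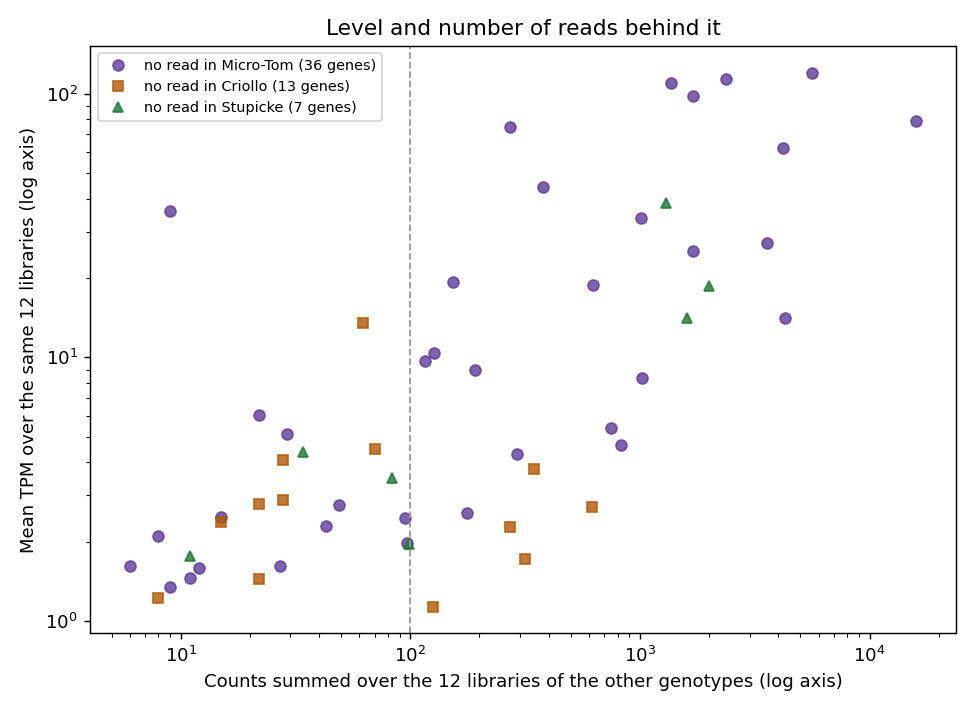
Mean TPM over the 12 libraries of the genotypes with reads (vertical, log axis) against the counts summed over the same libraries (horizontal, log axis), with 1 point per gene and the dashed line at 100 counts. 26 of the 56 genes lie left of the line, and Solyc02g068870.3.1 stands out at the left with 36.0 TPM on 9 counts.

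Some features that the genes had in common follow in part from the rule and are given as a description. The genes had few counts: the median sum over the 12 libraries with reads was 184 in the Micro-Tom class, 62 in the Criollo class and 99 in the Stupicke class, against 4129, 4200 and 4320 for all genes with at least 1 TPM in the same genotypes. Under 100 counts lay 14 of 36, 8 of 13 and 4 of 7 genes (38.9%, 61.5% and 57.1%), against 3.07%, 2.52% and 2.55% of all such genes. In 24 of the 56 genes at least 1 of the 12 libraries of the expressing genotypes was also at 0. By class these were 36.1%, 53.85% and 57.1% of the genes, against 1.79%, 2.43% and 2.35% of all such genes. A gene with few reads is more easily at 0 in 6 libraries, and how much this adds to the list was not tested.

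Most of these genes also had short effective lengths. The ratio of counts to TPM, which follows the effective length Salmon gives a transcript, was 0.0651, 0.0594 and 0.136 times that of the median gene in the Micro-Tom, Criollo and Stupicke classes (medians), against 0.947, 0.947 and 0.951 for all genes expressed in the same genotypes. It was under 0.5 for 51 of the 56 genes. The exceptions were Solyc01g111030.2.1 (1.09), Solyc08g082485.1.1 (0.803), Solyc03g093340.4.1 (0.719), Solyc04g055060.3.1 (0.670) and Solyc03g058805.1.1 (0.635). Effective length shrinks faster than true length in short transcripts, so these ratios overstate how short the genes are. A gene with few counts reaches the minimum TPM only with a short effective length, so the rule itself favours such genes.

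Gene models of version 1 made up 19 of the 36 genes of the Micro-Tom class, 11 of the 13 of the Criollo class and all 7 of the Stupicke class (52.8%, 84.6% and 100.0%). Among all genes expressed in the same genotypes the shares were 16.7%, 16.4% and 16.3%. Identifiers that do not end in 0 before the version number, which as a rule were inserted between older ones, made up 9, 5 and 3 genes (25%, 38.5% and 42.9%), against 5.97%, 5.80% and 5.57%. Few counts and short effective length are tied by the minimum TPM. How the other features depend on these was not tested.

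At the edge of the rule, the genes just inside it were Solyc04g050360.2.1, Solyc01g010065.1.1 and Solyc12g038650.1.1, with 1.05, 1.10 and 1.16 TPM in the lower of the genotypes with reads and 6, 125 and 9 counts. Just outside were Solyc05g016000.3.1, Solyc09g082440.1.1 and Solyc04g024820.1.1, with 0.997, 0.961 and 0.959 TPM and 10, 26 and 8 counts. Genes with a few stray reads were left out also when they were far more abundant elsewhere. The widest such case, named after its values were seen, was Solyc08g005150.3.1, which had 3 counts in Criollo and 22544 in Stupicke and Micro-Tom together.

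The genes of the Micro-Tom class were unevenly placed. Chromosome 4 held 10 of the 36 (27.8%), against 8.58% of all genes expressed in Stupicke and Criollo, followed by chromosome 3 with 5, chromosomes 2, 9 and 11 with 4 each, 1 and 5 with 3 each, 12 with 2 and 6 with 1. Chromosomes 7, 8 and 10 held none. In the Criollo class chromosomes 4 and 8 held 3 genes each, 2 and 7 held 2 each, and 1, 12 and the unplaced sequences held 1 each. The 7 genes of the Stupicke class lay on chromosomes 1, 2, 4, 6, 7 and 10, with 2 on chromosome 10. Runs, in which at most 5 other genes lay between neighbouring genes of 1 class, numbered 4 in the Micro-Tom class with 12 of its 36 genes and 0 in each of the other classes.

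The longest run held 6 of the 10 genes on chromosome 4. It went from Solyc04g081600.3.1 to Solyc04g081710.2.1 and held 6 genes without reads in Micro-Tom among 12 genes in identifier order: Solyc04g081600.3.1, Solyc04g081650.3.1, Solyc04g081660.3.1, Solyc04g081670.4.1, Solyc04g081690.2.1 and Solyc04g081710.2.1. The other 6 genes of the span differed among themselves. Solyc04g081620.1.1 and Solyc04g081640.3.1 were at 0 in every library, and Solyc04g081630.2.1 and Solyc04g081700.3.1 did not reach 1 TPM in any.

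The remaining genes of the span, Solyc04g081675.1.1 and Solyc04g081610.1.1, went opposite ways. Solyc04g081675.1.1 had 10.45 to 11.8 TPM in Stupicke and 11.01 to 17.6 TPM in Criollo, against 0.942, 0.794 and 0.480 TPM in MeJA-primed and 0.731, 0.892 and 0.0377 TPM in mock-primed Micro-Tom. It was higher in Stupicke and in Criollo than in Micro-Tom in mock-primed seeds, by 4.64 ± 0.39 and 4.61 ± 0.39 on the log2 scale (± SE, edgeR adjusted p = 1.65e-07 and 3.45e-07), and by 3.01 and 3.23 with limma on log2(TPM + 1). Solyc04g081610.1.1 had at most 0.932 TPM in Stupicke and 1.38 TPM in Criollo, against 9.44, 4.75 and 9.82 TPM in MeJA-primed and 8.72, 4.92 and 5.91 TPM in mock-primed Micro-Tom. Its log2 fold change was -4.59 ± 0.83 for Stupicke over Micro-Tom and -4.26 ± 0.76 for Criollo over Micro-Tom (adjusted p = 0.000204 and 0.000308), on 3 counts in Stupicke and 6 in Criollo, so its size is poorly fixed. It was -7.32 for Stupicke without replicate 2 of mock-primed Stupicke and -7.31 for Criollo without replicate 2 of mock-primed Criollo, and on log2(TPM + 1) limma gave -2.56 and -2.46. Solyc04g081610.1.1 passed edgeR's filter on low counts only through Micro-Tom, where it is high, so its calls are a description. Its direction was kept in all 26 alternatives of each value, which is part of the same description.

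On the far side of the run, Solyc04g081720.2.1 was also lower in the cultivars that expressed the run. It had 0.667 to 4.18 TPM in Stupicke and 0.369 to 1.43 TPM in Criollo, against 12.2 to 22.2 TPM in Micro-Tom. Its log2 fold change was -2.86 ± 0.43 for Stupicke and -5.19 ± 0.54 for Criollo over Micro-Tom in mock-primed seeds (adjusted p = 4.15e-05 and 2.33e-06). With 37 counts in Stupicke and 15 in Criollo, against 343 in Micro-Tom, it passed the filter only through Micro-Tom. Its calls are therefore a description. The next gene, Solyc04g081730.3.1, reached at least 115 TPM in every library. On the near side, Solyc04g081580.4.1 reached at least 21.9 TPM and Solyc04g081590.4.1 at least 1.43 TPM in every library.

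**Figure D3:**
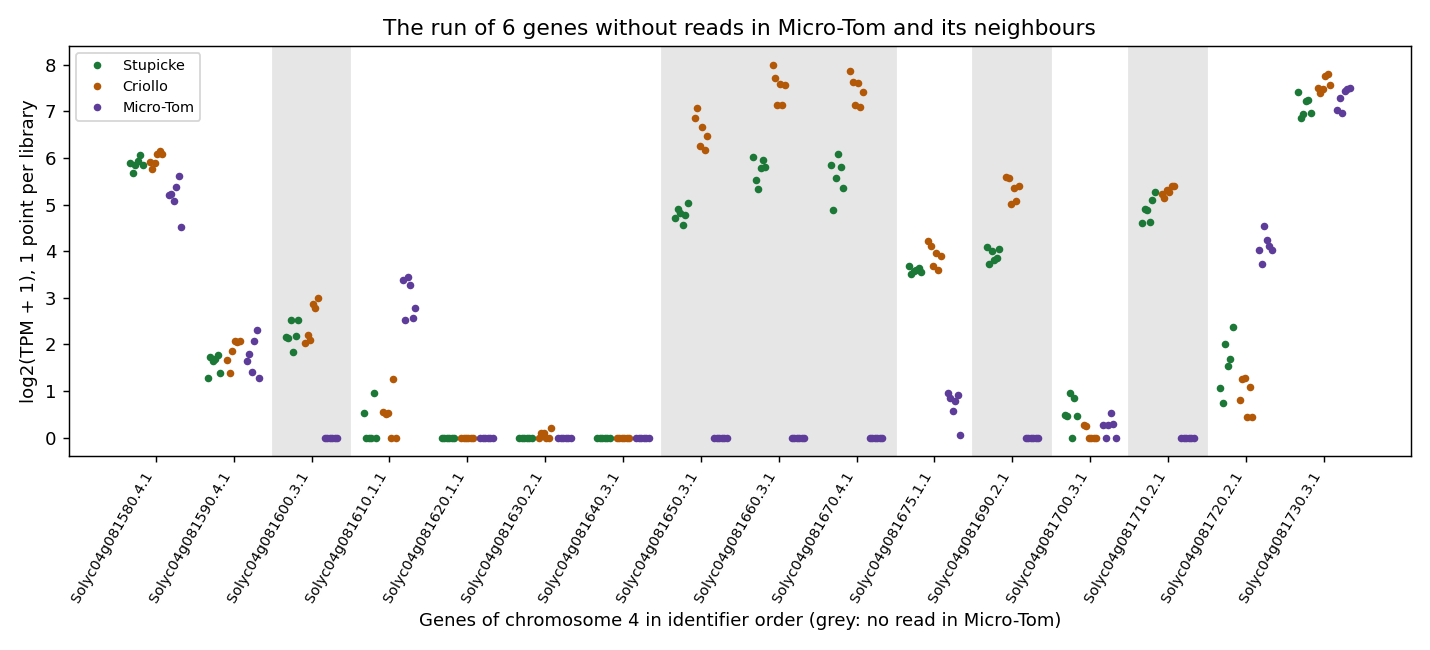
Level of each gene of the run on chromosome 4 and of its neighbours, in identifier order, as log2(TPM + 1), with 1 point per library, Stupicke left of Criollo left of Micro-Tom. The 6 genes on grey are at 0 in all 6 Micro-Tom libraries, while Solyc04g081610.1.1 and Solyc04g081720.2.1 are higher in Micro-Tom than in Stupicke and Criollo.

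The other 3 runs held 2 genes each. On chromosome 2, Solyc02g021163.1.1 had 32.2, 24.35 and 23.4 TPM in MeJA-primed and 24.5, 42.6 and 26.9 TPM in mock-primed Stupicke, against 19.3, 8.32 and 7.40 TPM in MeJA-primed and 8.93, 7.31 and 6.03 TPM in mock-primed Criollo. Next to it, Solyc02g021167.1.1 averaged 11.8 TPM in Stupicke and 6.12 TPM in Criollo. The gene before them, Solyc02g021160.2.1, had 444 counts in Stupicke and 227 in Criollo, against 4 in Micro-Tom. It was higher than in Micro-Tom by 6.66 ± 0.54 in Stupicke and 5.14 ± 0.58 in Criollo on the log2 scale (adjusted p = 1e-07 and 5.1e-06). As it passed the filter only through Stupicke and Criollo, its calls are a description.

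On chromosome 3, Solyc03g093340.4.1 was followed by Solyc03g093343.1.1, which had 15 counts in all. The genes after them were low in Micro-Tom but not at 0. Solyc03g093350.4.1 had 16.0 to 18.8 TPM in Stupicke and 13.96 to 20.3 TPM in Criollo, against 0.383 to 0.943 TPM in Micro-Tom. It was higher than in Micro-Tom by 4.998 ± 0.16 in Stupicke and 4.87 ± 0.16 in Criollo on the log2 scale (adjusted p = 1.42e-11 and 6.73e-12).

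On chromosome 11, Solyc11g028165.1.1 had 35.5, 32.0 and 29.4 TPM in MeJA-primed and 39.6, 35.3 and 37.0 TPM in mock-primed Stupicke, against 14.25, 15.15 and 14.1 TPM in MeJA-primed and 19.3, 10.3 and 20.7 TPM in mock-primed Criollo. Its neighbour Solyc11g028170.3.1, which averaged 133 and 63.4 TPM, was likewise higher in Stupicke. The gene after them, Solyc11g028180.1.1, had 129 to 191 TPM in Stupicke and 39.3 to 79.1 TPM in Criollo, against 40.0 to 91.4 TPM in Micro-Tom but for 6.83 TPM in replicate 3 of mock-primed seeds.

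Over all genes of a class, within runs and outside them, the nearest expressed genes on either side were mostly expressed in the genotype without reads. Of 57 such neighbours outside the Micro-Tom class, 4 (7.02%) were under 0.1 times their level in the other genotypes, against 0.712% of all expressed genes. Of these 4, Solyc04g081675.1.1, Solyc02g021160.2.1 and Solyc03g093347.1.1 lay in or beside the runs, and Solyc06g005350.3.1 lay beside Solyc06g005340.3.1, with 0.228 TPM in Micro-Tom and 4.82 TPM over the other genotypes. In the Criollo class it was 1 of 26 (3.85%, against 0.632%), Solyc02g021480.4.1 beside Solyc02g021490.1.1, with 0.104 TPM in Criollo and 14.8 TPM over the other genotypes. In the Stupicke class it was 0 of 13 (against 0.519%). The median ratio of the neighbours' level in the genotype without reads to that in the others was 0.764 for Micro-Tom, 1.22 for Criollo and 1.13 for Stupicke, against 0.963, 1.07 and 0.893 for all expressed genes.

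Whether the genes respond to MeJA was tested in the genotypes that had reads, since the rule averaged over both treatments. Of the 56 genes, 33 passed edgeR's filter on low counts and were tested: 23 of the Micro-Tom class, 5 of the Criollo class and 5 of the Stupicke class. The other 23 had too few reads and were not tested.

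With all libraries in the fit, no gene passed edgeR's test for MeJA against mock in any genotype. In Stupicke, 28 genes were tested and 0 were called at an adjusted p of 0.05 by edgeR, where 1.56% of all 19914 genes tested were called, and 0 had an unadjusted p under 0.05 (7.29% of all genes). In Criollo it was 0 of 28 (4.40% of all genes), with 3 at an unadjusted p under 0.05 (17.9%). In Micro-Tom it was 0 of 10 (15.6%), with 3 at an unadjusted p under 0.05 (32.6%). DESeq2 called 0 in Stupicke, 1 in Criollo and 0 in Micro-Tom, against 456, 1376 and 3984 of all 19914 genes. On log2(TPM + 1) limma called 0, 1 and 3, against 224, 869 and 2526 of all genes. The median log2 fold change was -0.09 in Stupicke, with values between -1.35 and 0.51. It was 0.09 in Criollo, between -0.94 and 0.69, and -0.03 in Micro-Tom, between -0.79 and 1.06. Their standard errors had medians of 0.27, 0.24 and 0.31, which limits the size of change that could be detected.

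The gene called by DESeq2 was Solyc03g093340.4.1, the uncharacterized conserved protein. It had 93.7, 99.3 and 93.7 TPM in MeJA-primed Criollo, against 78.7, 65.5 and 81.0 TPM in mock-primed Criollo, and the groups did not overlap. The log2 fold change was 0.50 ± 0.13 (SE), with an adjusted p of 0.0575 by edgeR and 0.0124 by DESeq2. In Stupicke it had 75.3, 83.5 and 74.1 TPM with MeJA, against 67.1, 62.9 and 73.3 TPM in mock-primed seeds, with a log2 fold change of 0.21 ± 0.13 and an adjusted p of 1 by edgeR. Over its alternatives the Criollo value had adjusted p from 0.0124 to 0.261, and it was 0.0247 when mock-primed Micro-Tom replicate 3 was left out.

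Among the genes tested in Micro-Tom, Solyc08g082485.1.1 had 1.10, 2.065 and 1.96 TPM in MeJA-primed, against 2.77, 2.52 and 2.71 TPM in mock-primed seeds, with a log2 fold change of -0.79 ± 0.28 (edgeR adjusted p = 0.0714). Solyc04g150173.1.1 had 11.8, 8.47 and 10.2 TPM in MeJA-primed, against 7.45, 7.43 and 4.44 TPM in mock-primed Micro-Tom, with a log2 fold change of 0.59 ± 0.22 (adjusted p = 0.0853). Solyc08g029385.1.1 had a log2 fold change of 0.83 ± 0.32 (adjusted p = 0.101). That gene had 2.84, 4.98 and 5.19 TPM in MeJA-primed, against 3.13, 2.32 and 1.51 TPM in mock-primed Micro-Tom. None of the 3 passed in edgeR with all libraries, but they were the 3 genes that limma called on log2(TPM + 1), with differences of -0.46, 0.61 and 0.68 (adjusted p = 0.0265, 0.0431 and 0.0487). Solyc08g082485.1.1 was also called by edgeR without replicate 2 of mock-primed Micro-Tom (-0.93, adjusted p = 0.0481).

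**Figure D4:**
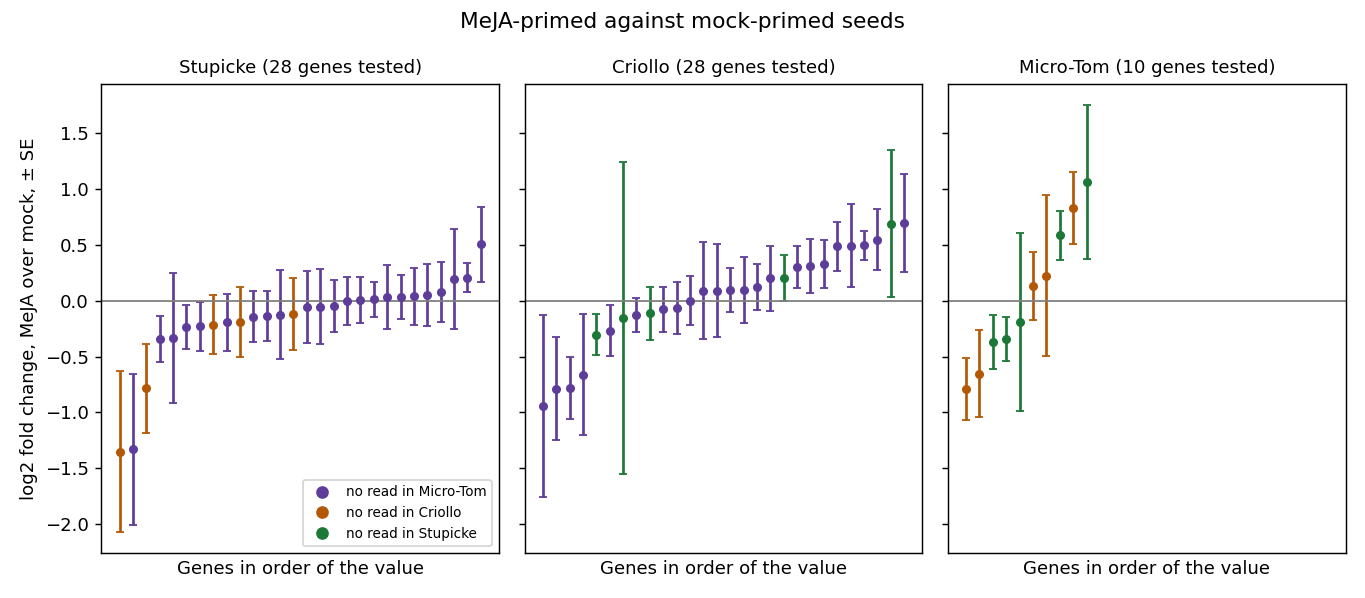
log2 fold change of MeJA over mock with its SE for each gene tested in Stupicke (28 genes), Criollo (28) and Micro-Tom (10), in order of the value and coloured by the genotype without reads. Values lie on both sides of 0 in each panel, and none passed an adjusted p of 0.05 in edgeR.

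The difference in MeJA response between the genotypes with reads was not called for any gene tested: 0 of 23 for Stupicke against Criollo, 0 of 5 for Stupicke against Micro-Tom and 0 of 5 for Criollo against Micro-Tom. Over all genes 0.0301%, 0.447% and 0.0954% were called in these comparisons. At an unadjusted p under 0.05 there were 0, 1 and 1 genes (7.80%, 15.3% and 9.05% of all genes). DESeq2 called 0 in each, against 99, 491 and 93 of all 19914 genes. On log2(TPM + 1) limma also called 0 in each, against 40, 208 and 111.

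The genes without reads in Micro-Tom were also compared between the cultivars that expressed them. In mock-primed seeds 15 of 23 genes tested passed the test of Stupicke against Criollo, 9 higher and 6 lower in Stupicke, where 41.7% of all genes were called (20.1% higher and 21.6% lower). Of the 9, Solyc01g110780.1.1, Solyc02g021163.1.1 and Solyc04g079670.1.1 reached 10 counts in at most 1 Criollo library and passed the filter only through Stupicke. Their calls and the counts over the tested genes are therefore a description. The median log2 fold change was 0.11, against -0.02 over all genes. DESeq2 called 13, 7 higher and 6 lower, against 8628 of all 19914 genes, of which 4215 were higher. In MeJA-primed seeds edgeR called 13 of 23 (22.4% of all genes), and all 13 were among the 15 called in mock-primed seeds, in the same direction. How many of all genes were called in both was not counted, so this overlap is a description. The calls not kept were those of Solyc02g021167.1.1 and Solyc05g018060.1.1. In MeJA-primed seeds these had 0.84 ± 0.34 and 0.13 ± 0.21 (edgeR adjusted p = 0.0996 and 0.702). On the log2(TPM + 1) scale the median of all genes lay at -0.23, and there limma called 17 of the 23, 9 higher and 8 lower in Stupicke. Of all genes limma called 8833, of which 2268 were higher in Stupicke, while edgeR called 8302, of which 3993 were higher.

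Within the run on chromosome 4, Solyc04g081650.3.1, Solyc04g081660.3.1, Solyc04g081670.4.1 and Solyc04g081690.2.1 were lower in Stupicke, with log2 fold changes of -1.36 ± 0.23, -1.41 ± 0.22, -1.43 ± 0.25 and -1.15 ± 0.19 (SE, n = 3 per group, edgeR adjusted p from 0.000394 to 0.000784). At the ends of the run, Solyc04g081600.3.1 had -0.50 ± 0.28 (adjusted p = 0.175) and Solyc04g081710.2.1 had -0.12 ± 0.22 (adjusted p = 0.716), and neither passed in edgeR. With limma Solyc04g081600.3.1 was called, at -0.70 on log2(TPM + 1) and -0.84 on log2(TPM + 0.1) (adjusted p = 0.00178 and 0.00685). Whether the end genes differ from those within the run was not tested.

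In the 2-gene runs on chromosomes 2 and 11 all 4 genes were higher in Stupicke in mock-primed seeds. The call of Solyc02g021163.1.1, which passed the filter only through Stupicke, is a description. The log2 fold changes were 2.15 ± 0.40 for Solyc02g021163.1.1 and 1.39 ± 0.35 for Solyc02g021167.1.1 (adjusted p = 0.00106 and 0.0074), and 1.44 ± 0.23 for Solyc11g028165.1.1 and 1.13 ± 0.22 for Solyc11g028170.3.1 (adjusted p = 0.000405 and 0.0016). On chromosome 3, Solyc03g093340.4.1 had 0.11 ± 0.13 (adjusted p = 0.544), which turned to -0.14 with limma on log2(TPM + 1), and its neighbour was not tested.

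Outside the runs, Solyc04g079670.1.1 showed the widest difference, 3.31 ± 0.34 higher in Stupicke on the log2 scale (adjusted p = 1.78e-05), as the separate levels of the libraries showed. This gene passed the filter only through Stupicke, so its call is a description. Solyc05g021510.2.1 and Solyc05g018060.1.1, both on chromosome 5, were higher in Stupicke by 0.86 ± 0.28 and 0.60 ± 0.21 (adjusted p = 0.0282 and 0.0353). Both calls were lost without replicate 1 or 2 of mock-primed Criollo or replicate 2 or 3 of mock-primed Stupicke. Solyc05g021510.2.1 reached an adjusted p of 0.119 without Stupicke replicate 2, and its call was also lost without Criollo replicate 3 and in DESeq2. Solyc05g018060.1.1 reached 0.168 without Stupicke replicate 3. The remaining genes called were chosen for naming after their values were seen: Solyc01g110780.1.1 (1.74 ± 0.64) and Solyc02g032170.4.1 (1.38 ± 0.27) were higher, and Solyc01g111030.2.1 (-1.00 ± 0.15) and Solyc04g079050.3.1 (-1.86 ± 0.32) were lower in Stupicke. The call of Solyc01g110780.1.1 (adjusted p = 0.0473) was lost in 13 of 26 alternatives, among them DESeq2 and leaving out replicate 1 or 3 of mock-primed Stupicke or Criollo, with adjusted p up to 0.224.

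**Figure D5:**
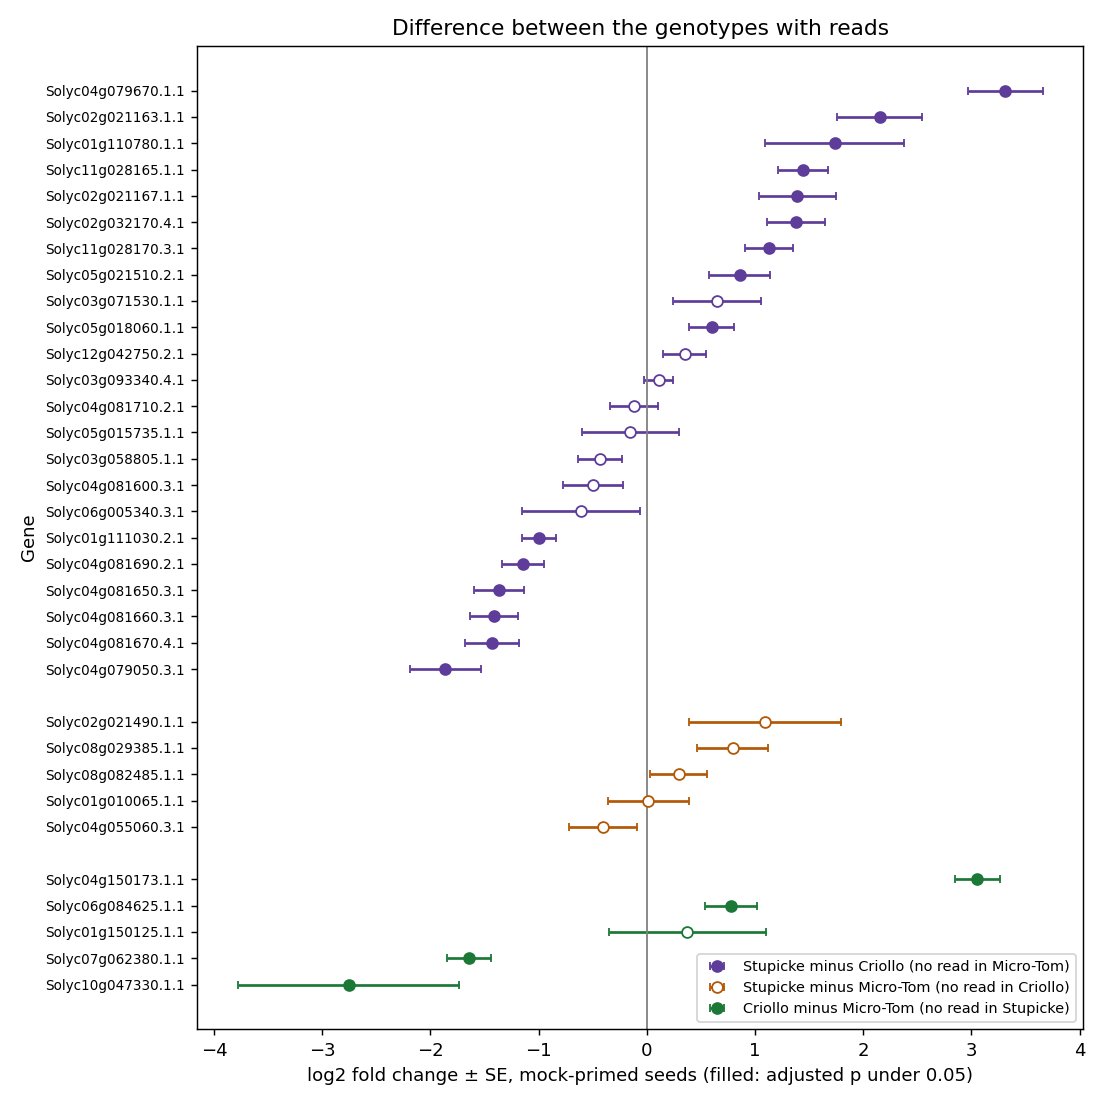
log2 fold change ± SE between the genotypes with reads in mock-primed seeds, for the 23 genes tested without reads in Micro-Tom (Stupicke minus Criollo), 5 without reads in Criollo (Stupicke minus Micro-Tom) and 5 without reads in Stupicke (Criollo minus Micro-Tom). Filled points passed an adjusted p of 0.05 in edgeR: 15, 0 and 4 genes.

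In the Criollo class 0 of 5 genes tested were called between Stupicke and Micro-Tom in mock-primed seeds, where 60.5% of all genes were called. At an unadjusted p under 0.05 there was 1, Solyc08g029385.1.1, with 5.64, 3.71 and 4.24 TPM in Stupicke, against 3.135, 2.32 and 1.51 TPM in Micro-Tom. Its log2 fold change was 0.79 ± 0.33 (edgeR adjusted p = 0.0522). DESeq2 called 0 of the 5, against 12246 of all 19914 genes, while limma on log2(TPM + 1) called 1, against 10707. In MeJA-primed seeds 1 of the 5 was called (44.2% of all genes), Solyc08g082485.1.1, higher in Stupicke by 0.87 ± 0.28 (adjusted p = 0.0231).

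In the Stupicke class 4 of 5 genes tested were called between Criollo and Micro-Tom in mock-primed seeds, 2 higher and 2 lower in Criollo, where 50.0% of all genes were called (23.8% higher and 26.2% lower). One of those lower, Solyc10g047330.1.1, had at most 3 counts in any Criollo library and passed the filter only through Micro-Tom, so its call is a description. Under a stricter filter, 10 counts in every replicate of some group, 3 genes were called, against 9846 of all 19445 genes. In MeJA-primed seeds 3 of the 5 were called (39.1% of all genes), in the same direction as in mock-primed seeds. The share of all genes called in both was not counted. Solyc04g150173.1.1 was higher in Criollo by 3.05 ± 0.21 and Solyc06g084625.1.1 by 0.78 ± 0.24 on the log2 scale (adjusted p = 5.12e-07 and 0.0179). Solyc07g062380.1.1 had -1.65 ± 0.20 (adjusted p = 4.97e-05). Solyc10g047330.1.1 had 0.774, 2.37 and 1.55 TPM in mock-primed Criollo, against 2.56, 3.19 and 10.3 TPM in mock-primed Micro-Tom, and a log2 fold change of -2.76 ± 1.03 (adjusted p = 0.0413). The last value rests on replicate 3 of mock-primed Micro-Tom, and was -1.46 when that library was left out (adjusted p = 0.261), while the other 3 calls remained without that library. Its call was also lost without any 1 of the mock-primed Criollo replicates, without MeJA-primed Criollo replicate 2 or Micro-Tom replicate 3, and with limma. On the log2(TPM + 1) scale the median of all genes lay at 0.205 for Criollo over Micro-Tom, and limma called 3 of the 5 genes, 2 higher and 1 lower. Of all genes limma called 9363, of which 6098 were higher in Criollo. Leaving out replicate 1 of mock-primed Criollo reduced the number called to 2 of the 5, and that of all genes to 8363 of 20252. The call of Solyc06g084625.1.1 was also lost without replicate 1 or 2 of mock-primed Micro-Tom (adjusted p up to 0.0638).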

How the data were processed

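RNA-seq of 18 libraries (6 groups of 3 replicates) was analysed. The authors sequenced poly(A) libraries as paired-end reads and quantified them with Salmon 1.2 against the tomato reference transcripts (ITAG4.0, SL4.0). The estimated counts per gene were deposited without normalization. The TPM values were deposited as scaled by the authors within each library for depth and transcript length. All columns matched a sample, and library totals are given in the report.

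Counts were rounded, and genes were chosen from zero counts and mean TPM as described. For tests across all 19914 genes kept by filterByExpr, edgeR 4.0.16 in R 4.3.3 was used (TMM, quasi-likelihood, 1 mean per group, Benjamini-Hochberg adjustment, called at 0.05). Fold bounds against a genotype at 0 use a floor of 3 counts over its 6 libraries. Alternatives were RLE factors, no filter, 10 counts or more in every library of a group, a log2 fold change of at least 1 for MeJA, MeJA-primed in place of mock-primed seeds, DESeq2 1.42.0, only the 12 libraries of the genotypes compared, the replicate block, limma 3.58.1 on log2(TPM + 1) and log2(TPM + 0.1), leaving out each library, and other limits of the rule, of which 3 were chosen after seeing the data. The tests were tried on simulated data. Python 3.11.15 with pandas 2.3.3 assembled the tables.

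The genes and lists were chosen with earlier results of these data known. Genes named are the 8 of highest mean TPM per class, those in runs, those called for MeJA or its difference between genotypes, and 3 on each side of the TPM minimum. The labels only number the replicates. The paper calls them biological without saying that they came from separate plants or seed lots, so p-values measure the spread between these samples. It took the RNA from the seed lot also used to collect seed exudates, so differences between genotypes may include differences between seed lots. The reference table at hand matched none of the identifiers, so gene families, closest copies and sequences were not analysed here. Seed and green-tissue genes were therefore taken from annotation words in the study's tables, which list only some of the genes. Among those listed are genes the study called different in these libraries and proteins it detected in exudates. Salmon divides reads between like transcripts, so values of close copies are uncertain.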

Additional observations from a re-analysis of the deposited data

How the results depend on the processing

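The number of genes depended on the limits of the rule more than on any 1 library. With a mean of at least 0.5 TPM it was 129 (70 for Micro-Tom, 32 for Criollo and 27 for Stupicke), and with at least 2 TPM it was 8 for Criollo and 4 for Stupicke. With up to 3 counts allowed in the silent genotype it was 172 (74, 55 and 43), of which 52 were among the 56. Under limits chosen after seeing the data it was 23 (16, 4 and 3) with at least 1 CPM in place of TPM, 32 (23, 6 and 3) with a read in each of the 12 libraries and 22 (16, 3 and 3) with 10 counts in each. Leaving out each library gave 57 to 64 in all, 35 to 42 for Micro-Tom, 12 to 21 for Criollo (21 without MeJA-primed Criollo replicate 2, 20 without replicate 3) and 7 to 13 for Stupicke (13 without MeJA-primed Stupicke replicate 2, 11 without replicate 3).

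For MeJA in Criollo, DESeq2, the fit of 12 libraries and limma on either TPM scale called 1 gene in place of 0. This was Solyc03g093340.4.1 in the first 2 and Solyc04g081600.3.1 (-0.77 on log2(TPM + 1)) with limma. Of all genes, DESeq2 called 1376 of 19914 and the fit of Stupicke and Criollo 1429 of 19149. On log2(TPM + 1) and log2(TPM + 0.1) limma called 869 and 567 of 19914. Leaving out each library gave 0 to 1 in Criollo (1 without mock-primed Stupicke or Micro-Tom replicate 3) and in Micro-Tom (1 without mock-primed replicate 2), where limma on log2(TPM + 1) called 3. Of all genes, 1160 of 20278 and 1812 of 20203 were called in Criollo without those libraries. In Micro-Tom 4136 of 20241 were called without mock-primed replicate 2, and 2526 of 19914 with limma. For Stupicke against Micro-Tom, 2 genes were called with no filter, 1 with limma on either scale and 1 in MeJA-primed seeds, and 0 to 1 with each library left out (1 without mock-primed Stupicke replicate 2, MeJA-primed Stupicke replicate 3 or replicate 1 of either Micro-Tom group). Of all genes, 12264 of 27640 were called there with no filter, 10707 and 10649 of 19914 with limma and 8805 in MeJA-primed seeds. With each library left out it was 10711 to 12339 of 20203 to 20288. For Criollo against Micro-Tom, leaving out libraries gave 2 to 4, and for Stupicke against Criollo 12 to 15. Over all genes these fits gave 8363 to 10417 and 6107 to 10909.

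Of 1013 alternative values of 39 single-gene tests, 955 kept their direction and side of the threshold, 37 lost the call, 17 gained one and 4 changed sign. The sign changes were in values that had not passed. For Stupicke over Criollo, Solyc03g093340.4.1 was -0.14 with limma on either TPM scale and -0.0024 (without mock-primed Stupicke replicate 3) to 0.1956 with each library left out. Solyc04g081710.2.1 lay between -0.3369 and 0.0659 (without mock-primed Stupicke replicate 1) with each library left out. The cause of these changes was not tested. Replicate numbers gave no clear pairing: deviations of same-numbered samples correlated by -0.42 to 0.39, and no pair of groups had all 3 above 0.1. With 3 replicates per group, these values cannot exclude that samples of 1 number were handled together. With the replicate block, 13 genes were called for Stupicke against Criollo, 3 for Criollo against Micro-Tom and 0 for Stupicke against Micro-Tom and for MeJA in each genotype. Of all 19914 genes, the block called 8164, 9790 and 11981 between these genotypes in the same order. For MeJA it called 261 in Stupicke, 712 in Criollo and 2768 in Micro-Tom. Depth limits the 26 genes under 100 counts most.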
